A study of Mus musculus with 6 samples.

Results

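Transcripts of the machinery that pulls misfolded proteins out of the endoplasmic reticulum (ER) for destruction were followed in dendritic cells sorted from mouse ovarian tumours. The 9 genes were chosen by their role, by a rule that uses no measured value, though with earlier results of these data known. They were Syvn1, Sel1l and Herpud1 of the Hrd1 ligase complex and the derlins Derl1, Derl2 and Derl3. Vcp, Nploc4 and Ufd1l of the p97 extraction complex made up the rest. All 9 were found among the 23225 gene symbols of the count table. The libraries came from ID8 tumours at day 23 in C57BL/6 mice, with the source labelled as ascites. There were 3 XBP1-KO libraries, from mice in which XBP1 was deleted conditionally in CD11c-positive cells, and 3 WT libraries, from wild-type mice. The labels do not name the Cre line, the sort gate or the age of the animals, or whether each sample was a separate animal. The p-values therefore reflect only how these samples vary, and part of that variation may be technical.

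ER-associated degradation, or ERAD, removes proteins that fail to fold in the ER. Lectins and mannosidases mark a misfolded glycoprotein, the adaptor Sel1l hands it to the membrane ubiquitin ligase Hrd1, and the derlins help it across the membrane, where the ATPase p97 with its cofactor Npl4 and Ufd1 draws it into the cytosol for the proteasome. XBP1 is the transcription factor made when the ER stress sensor IRE1 splices its mRNA, and several ERAD genes are known as its targets in other cells.

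The libraries held between 26946349 and 32709100 counts. Xbp1 itself had 32.5, 30.9 and 40.4 CPM in XBP1-KO a, b and c, against 67.2, 48.7 and 76.8 CPM in the WT libraries, so that the groups did not overlap (CPM, counts scaled to library size with TMM factors). The log2 fold change of -0.89 (SE 0.18) missed the threshold of 0.05 in the quasi-likelihood test of edgeR (adjusted p = 0.0545), and the counts do not separate deleted from intact transcripts. Its adjusted p was 0.0466 without WT b and above the threshold with any other library left out, up to 0.301. It also passed in DESeq2 (0.00187), with no filter (0.00731) and with a filter at a CPM of 1 (0.0464). The same held with a batch term for the b libraries (0.0112) and without both b libraries (0.0496). The labels name no batch, so no record stands behind grouping the b libraries. The second principal component held 22.2% of the variance. On it WT b (38.3) and XBP1-KO b (30.1) lay together, with XBP1-KO a (-45.0) furthest out on the other side. The 12 dendritic cell genes summed to 69519 to 98782 CPM in XBP1-KO and 74215 to 120911 CPM in WT. Most of this was Cd74 and H2-Aa, so the sum reflects them and not the whole list. Of the 12, 9 lay lower in XBP1-KO and 0 were called. Zbtb46, a factor of conventional dendritic cells, lay at 6.88 to 8.16 CPM in XBP1-KO and 8.51 to 8.92 CPM in WT. Itgax, the CD11c gene, lay at 133.0 to 161.1 CPM in XBP1-KO and 94.3 to 109.5 CPM in WT (adjusted p = 0.106, edgeR). Macrophage genes summed to 17368 to 21246 CPM in XBP1-KO and 13735 to 24212 CPM in WT, led by Lyz2 and C1qb.

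Markers of other cells were summed in each library. The 16 T and NK genes, led by Klrk1 and Klrb1c, summed to 358.6 to 514.3 CPM in XBP1-KO against 261.5 to 280.0 CPM in WT. Of the 16, 15 lay higher and 5 were called (adjusted p under 0.05, edgeR), where 0.445% of all tested genes were called. All 8 B cell genes lay higher, at 356.7 to 514.8 CPM in XBP1-KO and 141.6 to 329.3 CPM in WT (Cd79b, Ms4a1), as did all 9 neutrophil genes, at 352.9 to 554.1 CPM and 123.9 to 310.7 CPM in the same order of genotypes (Retnlg, S100a8), with 0 called in either list. Of 6 mast cell genes 5 lay higher and 3 were called, with sums of 136.1 to 187.7 CPM in XBP1-KO and 112.8 to 177.1 CPM in WT (Kit, Cma1). Kit, which leads the sum, was the 1 that lay lower, at 56.9 to 68.6 CPM in XBP1-KO and 70.4 to 140.5 CPM in WT. The sums overlapped for plasma cells, at 122.9 to 191.6 CPM in XBP1-KO and 143.3 to 205.7 CPM in WT (Irf4, Txndc5, with Tnfrsf17 at 0 in a library). That sum came mostly from Irf4 and Txndc5. Of the 8 plasma cell genes 4 lay higher, 4 lower and 0 were called. The genotypes did not overlap for 2 of the 8, both higher in XBP1-KO, against 19.2% of all tested genes in either direction. The sums also overlapped for plasmacytoid dendritic cells, at 184.8 to 255.8 CPM in XBP1-KO and 175.5 to 233.1 CPM in WT (Tcf4, Ly6d). So did those for tumour epithelium, at 91.5 to 162.6 CPM in XBP1-KO and 104.5 to 144.8 CPM in WT (Krt19, Krt18). For red cells they lay at 15.6 to 145.0 CPM in XBP1-KO and 12.6 to 136.3 CPM in WT, with overlap (Hba-a2, Hbb-b1). The b libraries held the high values in both genotypes. Hba-a2 had 92.6 CPM in XBP1-KO b and 82.5 CPM in WT b, against 8.75 to 12.2 CPM in the other libraries. Hbb-b1 had 47.0 and 45.4 CPM in the same order, against 3.64 to 8.37 CPM. The part of these cells in the results on the 9 genes was not tested. The T and NK score did not overlap between the genotypes, so a fit with that score cannot tell it apart from genotype.

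None of the 9 genes passed the test between the genotypes. In edgeR's quasi-likelihood test 0 of 9 passed at an adjusted p under 0.05, where 0.445% of the 15958 tested genes did, and DESeq2 and limma-voom also called 0. At an unadjusted p under 0.05 there was 1 of 9, Vcp, against 12.9% of all tested genes. Values that did not overlap between the genotypes were found for 1 of 9, Derl2, against 19.2% of all tested genes. Of the 9, 5 lay lower and 4 higher in XBP1-KO with a median log2 fold change of -0.04, and of all tested genes 43.9% lay lower with a median of 0.06. For Sel1l, Derl1, Derl2, Ufd1l and Nploc4 the 95% intervals of the fold lay between 0.728 and 1.38, while those of Herpud1 and Derl3 were far wider. In sorted cells measured in bulk, fewer cells of a type and less RNA per cell cannot be told apart.

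**Figure D1:**
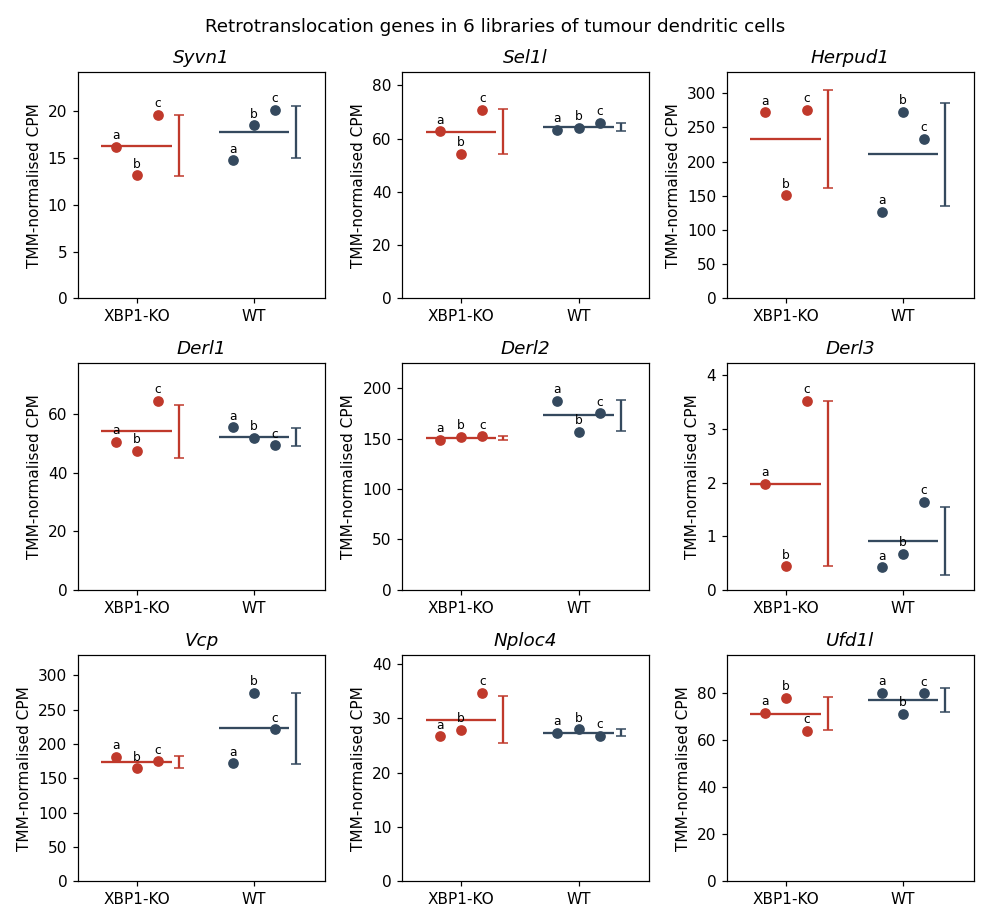
Level of each of the 9 genes in TMM-normalised CPM (vertical axis, from 0) in 3 XBP1-KO libraries (a to c; left, red) and 3 WT libraries (a to c; right, dark). Each point is a library, the line is the mean and the bar 1 SD over 3 libraries; Derl2 is the only gene whose groups do not overlap, and Herpud1 is low in XBP1-KO b and WT a.

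The promoters were read because XBP1, ATF6 and ATF4 act through known short motifs. RefSeq promoters of GRCm38.p6, from 250 bases before to 50 after a start site, were matched for 8 of the 9 genes, all but Derl1. They were searched on both strands for the ER stress element ERSE (CCAAT and CCACG with 9 bases between), ERSE-II (ATTGG and CCACG with 1 base between), the core of the unfolded protein response element (TGACGTGG), known as an XBP1 and ATF6 motif, and a C/EBP-ATF element read by ATF4 (TGATGCAA). No 2 matches overlapped. The 4 genes with a match are shown 5′ to 3′ in the direction of transcription, with the matched letters in capitals. The Syvn1 promoter (chr19:6046326-6046625, plus strand) holds an ERSE, that of Herpud1 (chr8:94386179-94386478, plus strand) an ERSE-II preceded by the C/EBP-ATF element on the opposite strand, that of Derl3 (chr10:75893148-75893447, plus strand) an ERSE on the opposite strand, and that of Vcp (chr4:43000458-43000757, minus strand) the unfolded protein response core.
Syvn1: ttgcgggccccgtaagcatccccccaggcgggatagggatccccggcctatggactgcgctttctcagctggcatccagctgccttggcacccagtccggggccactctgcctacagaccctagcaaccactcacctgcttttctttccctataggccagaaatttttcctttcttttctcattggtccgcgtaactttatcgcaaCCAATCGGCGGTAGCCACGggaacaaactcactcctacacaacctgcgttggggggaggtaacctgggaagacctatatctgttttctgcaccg
Herpud1: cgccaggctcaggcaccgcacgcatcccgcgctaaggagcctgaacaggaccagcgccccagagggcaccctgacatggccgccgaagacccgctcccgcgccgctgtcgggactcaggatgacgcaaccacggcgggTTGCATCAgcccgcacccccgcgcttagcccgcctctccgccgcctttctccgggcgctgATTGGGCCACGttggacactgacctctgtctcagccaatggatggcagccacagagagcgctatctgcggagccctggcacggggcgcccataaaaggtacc
Derl3: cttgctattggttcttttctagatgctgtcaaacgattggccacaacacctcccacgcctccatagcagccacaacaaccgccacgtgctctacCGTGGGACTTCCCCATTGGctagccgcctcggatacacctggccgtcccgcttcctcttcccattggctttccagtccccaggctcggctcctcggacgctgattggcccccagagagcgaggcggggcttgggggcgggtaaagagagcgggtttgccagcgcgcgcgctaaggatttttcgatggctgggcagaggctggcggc
Vcp: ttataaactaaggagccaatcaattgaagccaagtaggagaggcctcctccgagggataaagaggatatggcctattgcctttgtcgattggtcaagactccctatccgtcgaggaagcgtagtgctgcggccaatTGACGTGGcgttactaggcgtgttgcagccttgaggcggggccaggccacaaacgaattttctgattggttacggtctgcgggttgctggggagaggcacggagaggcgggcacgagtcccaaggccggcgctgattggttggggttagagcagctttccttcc

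Over 32544 promoters of that table, 0.120% held an ERSE, 0.0369% an ERSE-II, 0.682% the unfolded protein response core and 0.867% the C/EBP-ATF element. In the promoters of Sel1l, Derl2 (2 starts), Nploc4 and Ufd1l these letters are not in the window searched. The 22 tested genes with an ERSE promoter had a median log2 fold change of -0.12, with 0 called lower and 1 called higher. The 8 with an ERSE-II had a median of -0.02 with 0 called, and the 106 with the unfolded protein response core one of -0.05 with 1 called in each direction. The 97 with the C/EBP-ATF element had a median of 0.01 with 0 called. All 11310 tested genes with a promoter in the table had a median of 0.03, with 46.3% lower in XBP1-KO. The share lower was 68.2% for the ERSE and 50% for the ERSE-II. It was 53.8% for the unfolded protein response core and 47.4% for the C/EBP-ATF element. The 4 members with a match are counted in these sets. These values are a description, with no test.

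The 3 genes of the Hrd1 ligase complex overlapped between the genotypes. Syvn1, which encodes the Hrd1 ligase itself, had 16.2, 13.2 and 19.6 CPM in XBP1-KO a, b and c, against 14.8, 18.5 and 20.2 CPM in the WT libraries. XBP1-KO b was the lowest library and WT c the highest, with a log2 fold change of -0.13 (SE 0.20) (adjusted p = 0.827, edgeR). The gene with the ERSE printed above thus had a fold of 0.916, with a 95% interval of 0.678 to 1.24. Sel1l, the adaptor that holds Hrd1 together with the lectins, had 62.8, 54.3 and 70.9 CPM in XBP1-KO and 63.2, 64.0 and 65.9 CPM in WT. The WT values fell inside the XBP1-KO range, and the log2 fold change of -0.04 (SE 0.14) had an interval of -0.33 to 0.26 (adjusted p = 0.928, edgeR).

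Herpud1, a membrane protein with a ubiquitin-like domain that gathers the complex and is known for its strong induction by ER stress, had the widest spread over libraries of the members above the level of Derl3. It had 272.2, 150.8 and 275.9 CPM in XBP1-KO a, b and c, against 126.6, 272.3 and 233.4 CPM in the WT libraries. One library of each genotype, XBP1-KO b and WT a, lay far below the other 4, and the highest library held 2.18 times the lowest. The mean was 233.0 ± 71.2 CPM in XBP1-KO and 210.8 ± 75.4 CPM in WT (SD, n = 3 each), a log2 fold change of 0.14 (SE 0.34; 95% interval -0.67 to 0.96). The value was -0.12 without WT a, -0.017 without XBP1-KO c and 0.58 once both b libraries were left out, so its direction rested on single libraries.

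Among the derlins, rhomboid-like proteins without protease activity that form part of the exit path, the members differed in level and in spread. Derl2 had 148.7, 151.5 and 152.1 CPM in the XBP1-KO libraries, against 187.0, 156.6 and 174.9 CPM in the WT libraries. All XBP1-KO values lay below all WT values, as they did for 10.4% of all tested genes, at a log2 fold change of -0.20 (SE 0.12; adjusted p = 0.529, edgeR). In the GRCm38 annotation 231 exonic bases of Derl2, or 2.87%, overlap Mis12, a kinetochore gene on the opposite strand, and the strand setting of the counts is not given. Mis12 had counts of 424, 470 and 394 in XBP1-KO and 678, 731 and 748 in WT (adjusted p = 0.0696, edgeR), and its part in the Derl2 value was not tested. Derl1 had 50.7, 47.5 and 64.6 CPM in XBP1-KO and 55.6, 52.0 and 49.5 CPM in WT, with the highest and the lowest library both XBP1-KO and a log2 fold change of 0.05 (SE 0.15).

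Derl3, the derlin known from secretory cells and induced through the IRE1 pathway in other systems, had the fewest counts. It had 54, 13 and 116 counts in XBP1-KO a, b and c, against 12, 19 and 49 counts in the WT libraries. Libraries XBP1-KO a and c lay highest while XBP1-KO b lay among the low WT libraries. Its log2 fold change of 1.11 (SE 0.71) had an interval of -0.45 to 2.68, or a fold between 0.732 and 6.41 (adjusted p = 0.552, edgeR), and no difference was detectable within it. The value was 0.37 without XBP1-KO c and 1.85 without WT c.

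The extraction machinery held the gene with the smallest p of the 9. Vcp, the p97 ATPase, had 181.0, 164.5 and 174.9 CPM in XBP1-KO a, b and c, against 171.9, 274.8 and 221.6 CPM in the WT libraries. The XBP1-KO values were tight and the WT values spread widely, with WT a inside the XBP1-KO range. The mean was 173.4 ± 8.36 CPM in XBP1-KO and 222.8 ± 51.4 CPM in WT (SD, n = 3 each), at a log2 fold change of -0.36 (SE 0.16; unadjusted p = 0.0402 and adjusted p = 0.358, edgeR). The value moved with single libraries: it was -0.21 without WT b, -0.52 without WT a, and -0.16 once both b libraries were left out. The GRCm38 annotation holds a processed pseudogene, Vcp-rs, and a gene on the opposite strand that shares 352 exonic bases (7.26%) with Vcp, so its count is uncertain where reads were split.

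Neither gene of the p97 cofactor passed the test. Ufd1l, which binds ubiquitin chains, had 71.4, 77.8 and 63.8 CPM in XBP1-KO and 80.1, 71.2 and 79.8 CPM in WT, with a log2 fold change of -0.12 (SE 0.13). It shares 209 exonic bases (4.82%) with Cdc45 on the opposite strand. Nploc4, the Npl4 subunit, had 26.6, 27.9 and 34.7 CPM in XBP1-KO and 27.3, 27.96 and 26.7 CPM in WT, with a log2 fold change of 0.12 (SE 0.16) that turned to -0.026 without XBP1-KO c. Adjusted p-values in edgeR's test were 0.744 for Ufd1l and 0.775 for Nploc4.

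**Figure D2:**
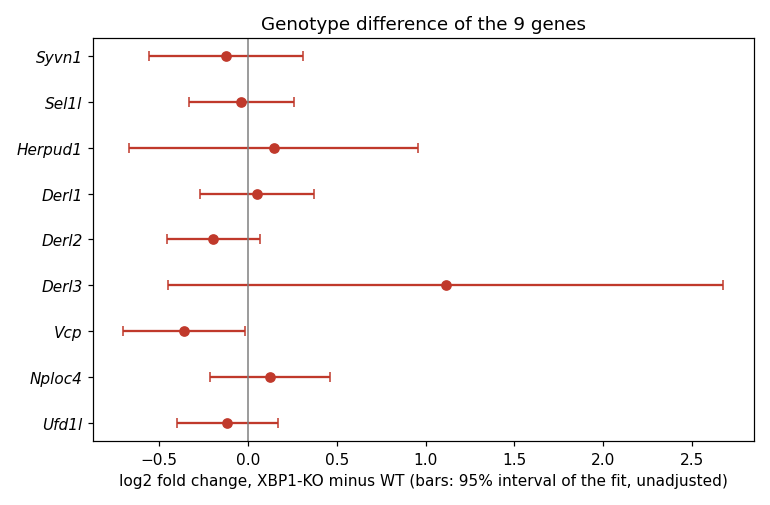
Log2 fold change of each gene, XBP1-KO minus WT (horizontal axis), from edgeR's fit over 3 XBP1-KO and 3 WT libraries, with bars for the unadjusted 95% interval. The interval of Vcp runs from -0.70 to -0.02 and is the only one that leaves out 0, and that of Derl3 is the widest.

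Levels of the genes relative to each other were compared per kilobase of the longest coding transcript in the GRCm38 annotation. Herpud1 stood first with 119.4 ± 36.5 CPM per kb in XBP1-KO and 108.0 ± 38.6 in WT (SD, n = 3 each, as for all levels here), followed by Vcp with 52.3 ± 2.52 in XBP1-KO and 67.2 ± 15.5 in WT. Derl2 had 41.1 ± 0.493 CPM per kb in XBP1-KO and 47.1 ± 4.18 in WT, and Ufd1l 34.2 ± 3.37 in XBP1-KO and 37.1 ± 2.44 in WT. Neighbours in this order overlapped over the libraries for Herpud1 with Vcp and for Vcp with Derl2, and no other neighbours did. Below them came Derl1 with 17.1 ± 2.85 CPM per kb in XBP1-KO and 16.5 ± 0.964 in WT, and Sel1l with 9.94 ± 1.31 in XBP1-KO and 10.2 ± 0.216 in WT. Nploc4 had 7.21 ± 1.05 CPM per kb in XBP1-KO and 6.63 ± 0.151 in WT, and Syvn1 4.71 ± 0.935 in XBP1-KO and 5.14 ± 0.8 in WT. Derl3 came last with 1.497 ± 1.17 CPM per kb in XBP1-KO and 0.690 ± 0.485 in WT. With the median transcript length instead, Derl2 had 110.4 CPM per kb over all libraries and took the second place from Vcp, and the other places were kept.

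Proportions within complexes were tested as log2 ratios of counts, where library size cancels. The ratio of Sel1l to Syvn1 was 1.95 ± 0.0964 in XBP1-KO and 1.86 ± 0.206 in WT (SD, n = 3 each). That of Derl2 to Derl1 was 1.49 ± 0.225 in XBP1-KO and 1.72 ± 0.119 in WT, and that of Ufd1l to Nploc4 1.26 ± 0.331 in XBP1-KO and 1.49 ± 0.127 in WT. The ratio of Herpud1 to Syvn1 was 3.80 ± 0.277 in XBP1-KO and 3.50 ± 0.39 in WT. In exact two-sided permutation tests, which cannot go below 0.1 with 3 against 3, p was 0.5, 0.2, 0.4 and 0.5 in that order, and 0.5 for each when adjusted over the 4 ratios.

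The other ERAD genes were read from 6 lists by role, 70 genes of which 65 matched a row and 63 were tested. Of the 63, 1 fell and 0 rose, against 0.288% of all tested genes that fell, and 34 lay lower with a median log2 fold change of -0.02. At an unadjusted p under 0.05, 10 of the 63 lay lower, or 15.9%, against 8.26% of all tested genes, and 1 lay higher. Atxn3, or ataxin-3, a deubiquitinase that binds p97, was the gene that fell, with 62.3, 54.9 and 54.6 CPM in XBP1-KO and 84.9, 92.0 and 96.2 CPM in WT. All its XBP1-KO values lay below all WT values, as they did for 10.4% of all tested genes, at a log2 fold change of -0.67 (SE 0.13; adjusted p = 0.0459, edgeR). With any 1 of the 6 libraries left out its adjusted p lay between 0.0571 and 0.26 and the call was lost.

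Genes that recognise a substrate had the lowest median of the 6 lists, -0.32, with 7 of 8 lower in XBP1-KO and 0 called. At an unadjusted p under 0.05 in edgeR's test 3 of the 8 lay lower. Of all tested genes 43.9% lay lower, and 8.26% did so at that p. Os9, a lectin that hands glycoproteins to Sel1l, had 38.6, 44.4 and 41.2 CPM in XBP1-KO, against 62.2, 62.8 and 57.6 CPM in WT. All XBP1-KO values of Os9 lay below all WT values, as for 10.4% of all tested genes, at a log2 fold change of -0.56 (SE 0.13). Its adjusted p was 0.0877 in edgeR's test, 0.02 in DESeq2 and 0.0879 in limma-voom. With any 1 library left out it lay between 0.0688 and 0.308 in edgeR's test. Edem1, which promotes mannose trimming and is outside the naming rule (chosen once its values were known), had 76.1, 73.2 and 92.2 CPM in XBP1-KO and 115.5, 114.2 and 115.7 CPM in WT. Its adjusted p was 0.102 in edgeR's test, 0.0333 in DESeq2 and 0.0982 in limma-voom. Os9 and Edem1 were each called in 2 of the 19 alternatives.

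Partners and anchors of the ligases had a median of -0.24, with 9 of 13 lower and 0 called. At an unadjusted p under 0.05 in edgeR's test 3 of the 13 lay lower, against 8.26% of all tested genes. Erlin2, which with Erlin1 forms a ring-like complex of the ER membrane that targets IP3 receptors, had 55.1, 86.6 and 81.0 CPM in XBP1-KO and 99.6, 122.4 and 100.5 CPM in WT (adjusted p = 0.196, edgeR). Among 13 other membrane ligases 9 lay lower, with a median of -0.09 and 0 called. Rnf185, a ligase of the ER membrane, had the smallest p, with 31.3, 30.2 and 24.6 CPM in XBP1-KO and 37.8, 35.9 and 41.0 CPM in WT (adjusted p = 0.264, edgeR).

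The remaining lists had medians above 0, as all tested genes did, with a median of 0.06 and 43.9% lower. Of 14 deubiquitinases and proteasome shuttles, Atxn3 among them, 10 lay higher with a median of 0.14, and of 8 p97 cofactors 5 lay higher with a median of 0.09 and 0 called. Ubxn6, a p97 cofactor, had 11.3, 8.67 and 9.04 CPM in XBP1-KO and 8.05, 7.75 and 7.25 CPM in WT (adjusted p = 0.552, edgeR). Of 7 ubiquitin-conjugating enzymes and their recruiters, 5 lay higher with a median of 0.11 and 0 called. Ube2j1, the conjugating enzyme that works with Hrd1, lay the other way, with 31.0, 29.6 and 31.0 CPM in XBP1-KO, below the 37.6, 46.9 and 36.3 CPM in WT (adjusted p = 0.278, edgeR). The difference between these lists was not tested.

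**Figure D3:**
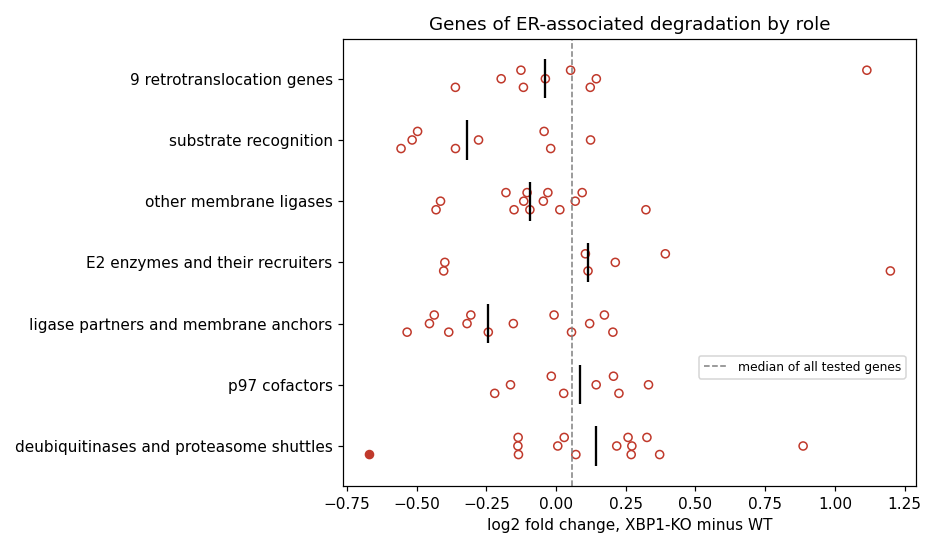
Log2 fold change, XBP1-KO minus WT (horizontal axis), of the 9 genes (top row) and of the tested genes of 6 further ERAD lists. Each point is a gene, filled where its adjusted p was under 0.05, the black bar is the median of the row and the dashed line the median of all tested genes, 0.06; Atxn3 at -0.67 is the filled point.

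Of the sensors and factors of the unfolded protein response, 0 of 8 passed the threshold in edgeR's test and 6 of 8 lay lower in XBP1-KO, with Xbp1 passing under the alternatives given above. Atf6, a sensor that is itself a transcription factor of ERAD genes, had 44.7, 55.3 and 43.6 CPM in XBP1-KO, against 63.9, 95.8 and 67.9 CPM in WT. The groups did not overlap, with XBP1-KO below WT as for 10.4% of all tested genes, at a log2 fold change of -0.66 (SE 0.17; adjusted p = 0.106, edgeR). Ern1, which encodes IRE1, had 2.32 ± 0.678 CPM in XBP1-KO and 4.10 ± 0.863 CPM in WT (SD, n = 3 each), with a log2 fold change of -0.82 (SE 0.33). Means for the PERK gene Eif2ak3 were 12.6 CPM in XBP1-KO and 15.8 CPM in WT, for Atf6b 6.34 and 7.62 CPM, for Atf4 70.1 and 62.2 CPM and for Ddit3 (CHOP) 19.4 and 13.99 CPM in the same order of genotypes. Hspa5, the chaperone BiP, had 1152 CPM in XBP1-KO and 1288 CPM in WT.

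Likeness of pattern was measured as the root mean square difference between log2 CPM profiles over the 6 libraries, each centred on its gene's mean. For Vcp, the member with the smallest p, the nearest genes of at least 5 CPM were Secisbp2 (0.0432), Setdb1 (0.0531), Rod1 (0.0574), Erlin1 (0.0578) and Cast (0.0709). Of these, Erlin1 is an ERAD gene, with 55.8, 53.4 and 54.0 CPM in XBP1-KO and 59.3, 91.3 and 70.4 CPM in WT. It was highest in WT b as Vcp was, a likeness that follows from the way nearest genes were chosen. Within the 9 genes, Derl1 and Nploc4 were each other's nearest at 0.0749, as were Derl2 and Ufd1l at 0.0979, while the nearest to Vcp, Syvn1, stood at 0.220. Sel1l lay nearest to Derl1 (0.0937), Syvn1 to Sel1l (0.138), Herpud1 to Syvn1 (0.314) and Derl3 to Herpud1 (0.785).

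The same was done for Herpud1, chosen after its values were seen because it varied most among the well-expressed members. Its nearest genes were 9130401M01Rik (0.114), 4930534B04Rik (0.117), Atxn10 (0.129), Akna (0.129) and Nfkbib (0.134), none of them in the ERAD lists. Like Herpud1, all 5 were lowest in WT a and second lowest in XBP1-KO b, which follows from choosing them by that profile.

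**Figure D4:**
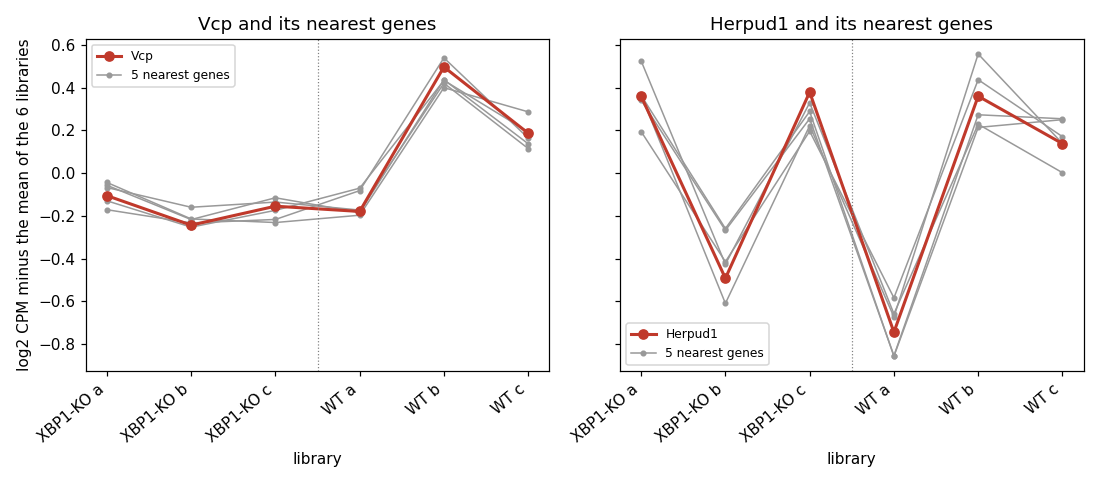
Log2 CPM minus the gene's mean over 6 libraries (vertical axis) in the XBP1-KO libraries (left of the dotted line) and the WT libraries, for Vcp and for Herpud1 (red) with the 5 nearest genes of each (grey). Vcp peaks in WT b and varies little over the XBP1-KO libraries, and Herpud1 dips in XBP1-KO b and WT a.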

How the data were processed

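RNA was sequenced from 3 XBP1-KO and 3 WT samples. The deposited counts are whole, unscaled numbers per gene symbol. Build mm9 and the tools RSEM and edgeR stand in the submitters' processing notes, without roles. For aligner, annotation and strand setting, nothing is given in the sources used here. The authors' CPM table, as deposited, equals count over library total (largest difference 5.1e-11) for its 13946 genes above a CPM of 1 in at least 2 libraries. Columns name the genotype only, so libraries are called a, b and c, letters that pair nothing; no column was left out.

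The fit used edgeR 4.0.16 (R 4.3.3): filterByExpr (15958 genes kept, all 9 members among them), TMM factors, robust glmQLFit on genotype, two-sided F test, Benjamini-Hochberg adjustment over all tested genes. Standard errors are the log2 fold change over the square root of F. Alternatives were DESeq2 1.42.0, limma 3.58.1, other scalings and filters, left-out libraries and covariates. The batch term for the b libraries follows no label. Libraries of one genotype differed by more than sampling noise (chi-square per degree of freedom at least 22.5).

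Members and lists were chosen with earlier results of these data known. Named were all members, the 8 stress sensors and factors, the called genes or smallest p of each ERAD list, the 2 most abundant genes of each marker list, and nearest genes. Edem1, Aup1, Zbtb46, Tnfrsf17, Mis12 and the neighbours of Herpud1 were named outside this rule, after their values were seen, and 1 further gene under that rule is not reported here. Sequences are RefSeq's for GRCm38.p6, not the build of the counts.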

Additional observations from a re-analysis of the deposited data

How the results depend on the processing

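None of the 9 members passed under any of the 19 alternatives. Of all genes, 71 changed (25 higher, 46 lower). That count was 426 with DESeq2 and with both b libraries set apart by a batch term, 252 with no filter, 45 without robust estimation, 25 with library size alone (13 higher, 12 lower), 31 and 29 with deposited CPM at pseudocounts of 1 and 0.1 (15 and 14 higher, 16 and 15 lower), 0 with the T and NK score, and 5 to 154 with 1 library left out (13, 154 and 16 on leaving out XBP1-KO a, b and c in turn, and 38, 40 and 5 for WT a, b and c). Of these, 9, 32 and 15 were higher and 4, 122 and 1 lower without XBP1-KO a, b and c, and 15, 12 and 4 higher and 23, 28 and 1 lower without WT a, b and c, so higher calls outnumbered lower ones without XBP1-KO a, XBP1-KO c or WT c. Upper quartile scaling gave 23 higher and 27 lower. Of the other ERAD genes, 1 changed, and this was 3 with DESeq2 and the batch term (Os9, Edem1, Atxn3) and 0 with voom, upper quartile scaling, library size alone, no robust estimation, deposited CPM at either pseudocount, the 4 libraries a and c, the T and NK score and each left-out library (0 to 0).

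Log2 fold changes near 0 turned sign in places. Sel1l lay at 0.016 with upper quartile scaling, 0.042 with library size alone, 0.034 with deposited CPM at either pseudocount, 0.032 in the 4 libraries and 0.42 with the T and NK score, and from -0.16 to 0.042 with 1 library left out. Syvn1 lay at 0.017 in the 4 libraries and 0.66 with the T and NK score, under which Derl3 lay at 5.17 and Herpud1 at 1.25. With 1 library left out Herpud1 ran from -0.12 to 0.37, Derl1 from -0.12 to 0.13 and Nploc4 from -0.026 to 0.19. The cause was not tested. Among the ratios, the difference of Ufd1l to Nploc4 was -0.042 without XBP1-KO c, that of Derl2 to Derl1 -0.11 without XBP1-KO c, that of Sel1l to Syvn1 0.0077 to 0.20 and that of Herpud1 to Syvn1 0.096 to 0.48 with 1 library left out. No paired analysis was possible because the columns carry no replicate number. Derl3 rested on 12 to 116 counts a library, which limits its precision.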

Other observations

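The libraries in which members were lowest were looked at after their values were seen. Syvn1, Herpud1, Derl3 and Vcp, the 4 members whose promoter held a searched motif, all had XBP1-KO b and WT a as their lowest pair of libraries, as did 5.37% of all tested genes. None of the 4 members with a promoter but no match did so. The pair, 1 of 15 possible, was picked from the values of these same members, so this is no test of a link to the motifs. Some gaps were small: Vcp had 171.9 CPM in WT a and 174.9 CPM in XBP1-KO c. Derl3 had 12 counts in WT a, 13 in XBP1-KO b and 19 in WT b. Among 225 other tested genes with any of the 4 motifs the pair was lowest for 8, or 3.56%, against 5.55% of the 11310 tested genes with a promoter.

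Aup1, a lipid droplet and ER protein that recruits the conjugating enzyme Ube2g2, was chosen for having the same low libraries. It had 154.2, 73.3 and 110.1 CPM in XBP1-KO a, b and c, against 36.9, 153.7 and 100.7 CPM in the WT libraries. The highest library held 4.18 times the lowest, with an adjusted p of 0.912 between genotypes in edgeR's test.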
